A study of Homo sapiens with 2 samples.

Results

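The sites described here are all places on chromosomes 1 to 22 and X of the human genome (GRCh37, the assembly of hg19) that match the last 11 bases of the uPA gRNA T2, are followed by an NGG PAM and lie within 2 kb of a transcription start of a protein-coding gene. There were 301 such promoter sites, out of 6819 T2 seed sites in all. They fell into 191 loci, where sites with centres at most 140 bp apart were joined, and their nearest starts belonged to 189 genes. The starts were those of basic protein-coding transcripts of GENCODE 44. HEK293T cells, an established human embryonic kidney line, were transfected with 500 ng of a plasmid for dCas9-BFP-DNMT3A and 500 ng of plasmids for the 5 uPA gRNAs T1 to T5. Binding was measured 48 hours later by ChIP-seq with an antibody against the HA tag, and the authors called peaks against 1 input sample. A site was taken as bound when the centre of its 14 bases of seed and PAM lay within 70 bp of a peak summit.

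dCas9 is a Cas9 that cannot cut DNA but is still led by a gRNA to matching sequence next to a PAM. Pairing starts at the PAM-proximal end of the gRNA, the seed, so that sites matching only the seed can be occupied. DNMT3A is a de novo DNA methyltransferase, which acts on CpG dinucleotides. Gene promoters are often rich in CpG, and many lie in CpG islands that stay unmethylated in most tissues. T2 was designed against the promoter of PLAU, the gene of urokinase-type plasminogen activator (uPA).

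The depth of the peak call was 62723055 ChIP tags and 62723050 input tags of 49 bases, of which 44934315 and 46375481 were left after duplicates. Only 1 list of peaks was analysed and the fusion protein was expressed from a transfected plasmid with 5 gRNAs at once. No list from cells without T2 was analysed, so T2-dependent signal and other signal at a summit cannot be told apart. This list held no replicates, and therefore no p-value is given. Intervals are 95% Wilson intervals for shares, Newcombe intervals for differences of shares and order-statistic intervals for medians. They cover counting error only, and they are too narrow where several sites share 1 summit or 1 locus.

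The sequences below show the guide, some of the sites that matched most of it and sites under the strongest bound peaks. TIMP1 is shown as a bound site that matched only the seed. They are written 5′ to 3′ on the strand of the site, with the PAM as the last 3 bases. Capitals mark bases identical to T2, and the PAM is in lower case.
T2: GAGCCGGGCGGGAGAGGGAG
PLAU: GAGCCGGGCGGGAGAGGGAGggg
LMAN1: GAGgaGGGCGGGAGAGGGAGggg
TMEM161B: GAGCgGGagGGGAGAGGGAGggg
EMX2: GAGggGGGaGGGAGAGGGAGagg
UBXN10: GAGggaGGtGGGAGAGGGAGagg
LIMA1: cccggcaGaGGGAGAGGGAGagg
CRYBB1: agaaaGGGaGGGAGAGGGAGagg
TTC22: tccCaGccgGGGAGAGGGAGggg
NMB: atctCaGGaGGGAGAGGGAGtgg
TIMP1: cgaggcccaGGGAGAGGGAGagg

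The first 4 sites under T2 were unbound and the last 6 were bound. PLAU (chr10:75670819-75670841, plus strand, at -27.5 bp from the start) matched all 20 bases. LMAN1 (chr18:57026495-57026517, plus strand, at -13.5 bp) matched 18 bases. TMEM161B (chr5:87564963-87564985, plus strand, at -304.5 bp) and EMX2 (chr10:119302577-119302599, minus strand, in an untranslated exon at 326.5 bp) each matched 17. A site at NR2F1 (chr5:92917504-92917526, minus strand), unbound and not shown, also matched 17. UBXN10 (chr1:20511286-20511308, plus strand, in an intron, at -1287.5 bp from the nearest start) matched 16. It was 1 of 30 promoter sites with 16 bases matched, of which 4 were bound. Negative distances are upstream. LIMA1 (chr12:50616432-50616454, plus strand, in an untranslated exon) matched 12. CRYBB1 (chr22:27013777-27013799, minus strand, intron) and NMB (chr15:85203534-85203556, plus strand, outside transcripts) each matched 14. TTC22 (chr1:55265419-55265441, plus strand, intron) matched 13, and TIMP1 (chrX:47441635-47441657, plus strand, intron) matched only the 11 bases of the seed.

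Of the 301 promoter sites, 57 were bound (18.9%, interval 14.9 to 23.7). The background over all T2 seed sites was 18.3% (1246 of 6819), so the share at promoters was close to it. Away from promoters 1189 of 6518 sites were bound (18.2%), and the difference of 0.695 percentage points had an interval from -3.44 to 5.59. This near-equality did not hold among sites whose surrounding 49-base words all occur once in the genome. There, 39 of 168 promoter sites (23.2%) and 572 of 1760 other sites (32.5%) were bound, a difference of -9.29 points (interval -15.4 to -2.02). It did not hold either when promoters were limited to 1 kb around the start, where 24 of 199 sites were bound (12.1%, difference from all other sites -6.40 points, interval -10.3 to -1.06). The 57 bound sites lay at 42 summits, each the summit of 1 peak and each at a different gene, and 35 of these peaks had 1 bound promoter site. The summit was a median of 14 bp from the nearest bound site, and 40 of the 42 summits were within 35 bp. The remaining 244 sites were unbound, and 212 of them were over 10 kb from any summit.

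The length of the match to T2 went with binding at promoters. For this comparison every NGG site near a start was counted by its unbroken match from the PAM, and sites with a T2 seed site within 140 bp were left out of the shorter classes. With exactly 5 bases matched, 42 of 49167 promoter sites were bound (0.0854%). The share was 0.152% with 6 bases (15 of 9895) and 0.102% with 7 bases (5 of 4880), so it did not rise at every step. The intervals of these classes overlapped that of 5 bases. It was 0.646% with 8 bases (6 of 929), 1.27% with 9 bases (5 of 394) and 5.00% with 10 bases (8 of 160, interval 2.56 to 9.56). At 11 or more bases it was the 18.9% given above. The shares for 10 and for 11 or more bases did not overlap in their intervals. Because the 11-base seed was the top motif of peaks in this experiment, this step is no independent test of T2. No chance rate of lying within 70 bp of a summit is given here. Elsewhere in the genome the shares were 0.0565% with 5 bases and 8.57% with 10 bases (146 of 1704).

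**Figure D1:**
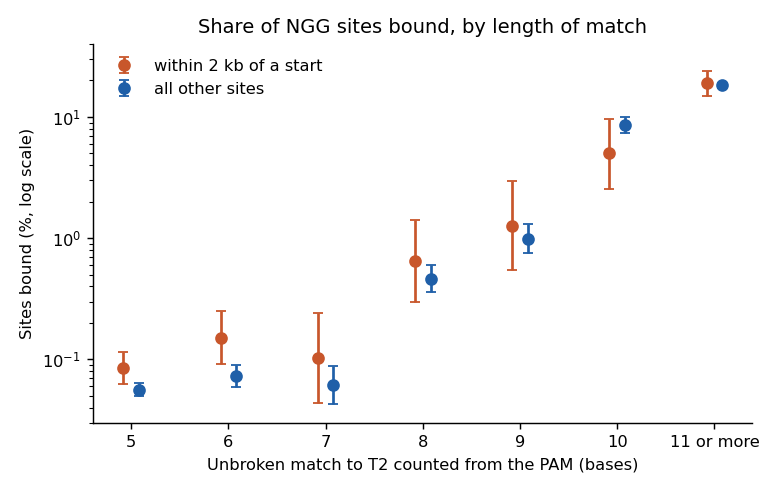
Share of NGG sites bound, in percent on a log scale, against the unbroken match to T2 counted from the PAM, for sites within 2 kb of a start and all other sites, with 95% Wilson intervals. Classes under 11 bases leave out sites with a T2 seed site within 140 bp. At promoters the share runs from 0.0854% at 5 bases to 18.9% at 11 or more. The 11-base seed was the top motif of peaks in this experiment, so the step at 11 bases is no independent test.

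The genes under the strongest bound peaks had widely different known roles. The peak at LIMA1, a gene for an actin-binding protein, had the highest fold enrichment over the input (11.4, 53 tags), and it ranked 10 among all 7748 peaks on these chromosomes. The site lay 40.5 bp after the start. TFDP2, which encodes a dimerization partner of E2F factors, had a fold of 10.3 with 3 bound sites in an intron. The one nearest the summit lay 1126.5 bp after the start. CRYBB1, a lens crystallin gene, and TTC22 both had 9.91. SFRP5, for a secreted inhibitor of Wnt signalling, and UCP3, for a mitochondrial uncoupling protein, both had 9.61. These 6 peaks held 48 to 74 tags each.

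The next genes of the ranking were NMB, for the neuropeptide neuromedin B, with a fold of 9.34, and GLI3, for a transcription factor of Hedgehog signalling, with 9.31. OR2V1, an olfactory receptor gene, had 8.71, and DHH, for the ligand Desert hedgehog, had 8.41. The GLI3 site nearest the summit was at -12.5 bp from the start, whereas the DHH site lay in an intron at 1778.5 bp. In all these 10 genes the summit was 5.5 to 37.5 bp from the nearest site, and the 250 bp on each side of that site held only 1 to 8 CpG. The lowest fold values among the 42 peaks were those of NPR1, a receptor gene for natriuretic peptides, and ARRDC2, both 3.91.

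**Figure D2:**
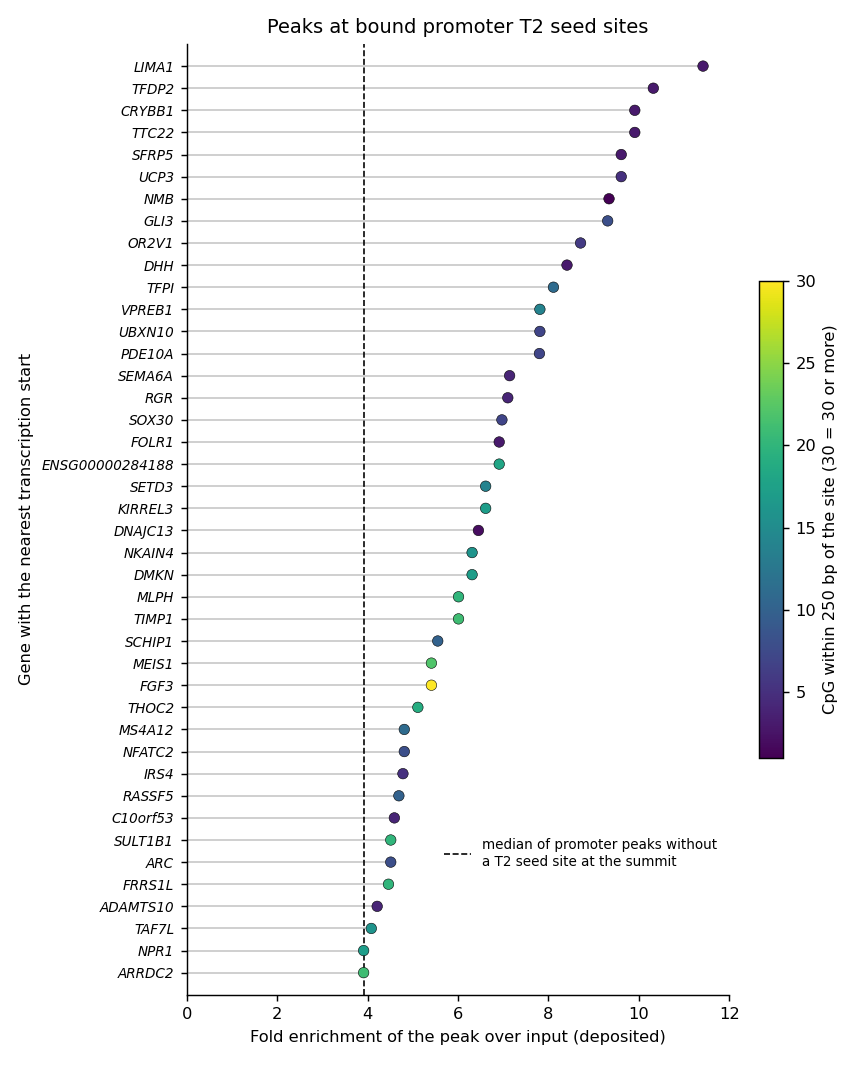
Deposited fold enrichment over input of the 42 peaks with a bound promoter site, 1 point per peak, named by the gene with the nearest start and coloured by the CpG count within 250 bp of the site. LIMA1 (11.4) and TFDP2 (10.3) head the list, the dashed line marks the median of 3.91 for promoter peaks without a T2 seed site at the summit, and dark points (few CpG) gather at the top.

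As a group, the 42 peaks at promoter sites had a median fold enrichment of 6.53 (interval 5.41 to 7.14, range 3.91 to 11.4). The 713 peaks at bound sites elsewhere had a median of 6.01 (5.73 to 6.14), so these medians did not differ beyond their intervals. The 348 promoter peaks without a T2 seed site at the summit had 3.91 (3.87 to 4.01), clearly below both. Because the seed was the top motif of peaks in this experiment, this contrast is no independent test of T2. Median tag numbers were less separated, at 42, 38 and 33. Of the 42 peaks, 26 had a MACS P value at or below 1e-05, and 28 were in the highest 10% of all peaks by fold enrichment. The median score, -10 times the log10 of P, was 69.3 for the 42 peaks. It was 54.9 for peaks at bound sites elsewhere and 36.7 for promoter peaks without a T2 seed site. The false discovery rate that MACS estimated was high throughout. The lowest value was 13.95% (GLI3), and 13 of the 42 peaks had 100%. Their median of 42.9% was below that of peaks at bound sites elsewhere (80.9%) and of promoter peaks without a T2 seed site (100%).

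Bound promoter sites had fewer CpG around them than unbound ones. Within 250 bp of the site centre, bound sites had a median of 11 CpG (interval 7 to 15, quartiles 4 and 17) and unbound sites 18 (17 to 18, quartiles 13 and 26.2). With 0 to 9 CpG, 25 of 64 sites were bound (39.1%, interval 28.1 to 51.3). The share was 17.3% with 10 to 19 CpG (23 of 133) and 15.7% with 20 to 29 (8 of 51). With 30 or more CpG only 1 of 53 sites was bound (1.89%, interval 0.334 to 9.94). That site was at FGF3, a fibroblast growth factor gene, in an untranslated exon with 58 CpG and a peak of 5.41-fold over 20 tags. FGF3 was named after its values were seen, as were the most CpG-dense unbound sites, at NFIX (88 CpG) and CIC (85 CpG), which encode transcription factors. The 2 medians had separate intervals, but these met or overlapped when 150 bp from the summit or the whole peak counted as bound (difference -3 and -3.5 CpG) and among sites within 1 kb of a start (-9 CpG). Counted by locus, 22 of 55, 14 of 59, 6 of 36 and 1 of 48 loci were bound in these 4 classes.

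**Figure D3:**
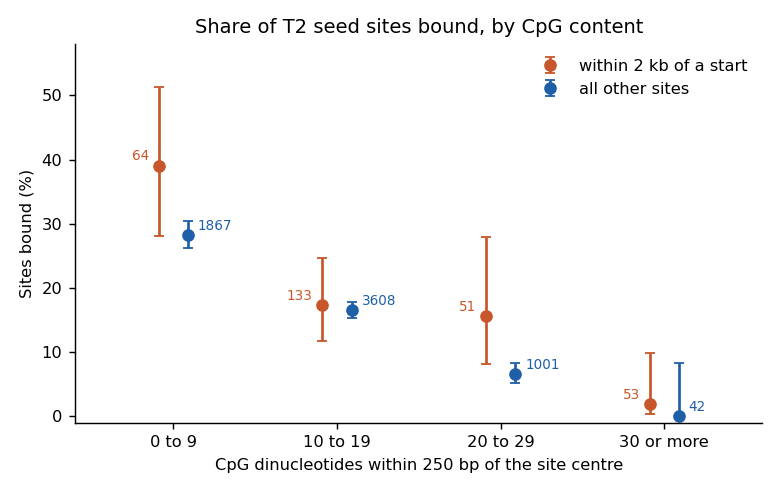
Share of T2 seed sites bound, in percent, by the number of CpG dinucleotides within 250 bp of the site centre, for promoter sites and all other sites, with 95% Wilson intervals and the number of sites beside each point. At promoters the share goes from 39.1% with 0 to 9 CpG to 1.89% with 30 or more, and the sites elsewhere go from 28.3% to 0%.

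The order of the CpG classes was also seen away from promoters. There, 28.3% of 1867 sites with 0 to 9 CpG were bound, 16.5% of 3608 with 10 to 19, 6.59% of 1001 with 20 to 29 and 0 of 42 with 30 or more, a count that allows a share of up to 7.14% by the rule of 3 counts and up to 8.38% by the Wilson interval. In each class the intervals for promoter and other sites overlapped. Promoter sites inside a CpG island (at least 500 bp, 55% GC and an observed/expected ratio of 0.65) were bound in 11 of 114 cases (9.65%). Outside an island 46 of 187 were bound (24.6%), a difference of -14.9 points (interval -22.8 to -6.12). Within 1 kb of a start the island difference was -5.79 points, and its interval from -14.7 to 3.62 included 0.

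GC content moved with the CpG count. Its median within 250 bp was 50.9% at bound and 58.7% at unbound promoter sites, and 24 of 51 sites under 50% GC were bound (47.1%), against 5 of 95 sites with 60% GC or more (5.26%). The separate parts of GC and CpG were not tested. The 348 promoter peaks with no T2 seed site within 70 bp of the summit, a group that includes the PLAU peak, had a median of 4 CpG and 42.7% GC within 250 bp of the summit, whereas the 42 peaks with a bound promoter site had 8 CpG and 51.0% GC. Across the 42 peaks fold enrichment was lower where the CpG count was higher (Spearman's rho -0.59, Pearson's r -0.45, n = 42 peaks that share 1 library and differ in base composition).

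Bound promoter sites were on the whole farther from the start. Their median distance was 1132.5 bp (interval 750.5 to 1287.5) against 721.5 bp (620.5 to 808.5) for unbound sites, and the 2 intervals overlapped. Within 500 bp of a start 15 of 112 sites were bound (13.4%), and from 500 to 1000 bp 9 of 87 (10.3%). From 1000 to 1500 bp it was 21 of 52 sites (40.4%) at 12 of 30 loci, and from 1500 to 2000 bp 12 of 50 (24%). Of the 42 sites within 100 bp of a start 6 were bound, beside 18.9% of all promoter sites. No interval was computed for this count. With under 20 CpG, 18 of 115 sites within 1000 bp of a start were bound (15.7%) and 30 of 82 beyond it (36.6%). With 20 or more CpG these shares were 7.14% (6 of 84) and 15% (3 of 20), and in both distance classes the intervals of the CpG-poor and CpG-rich sites overlapped. Among sites with under 20 CpG, the intervals for the near sites (10.1 to 23.4) and the far sites (27.0 to 47.4) were separate. These intervals count neighbouring sites of a locus as if they were independent. Counted by locus, 17 of 65 near and 19 of 49 far loci were bound, and no interval was computed for loci.

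**Figure D4:**
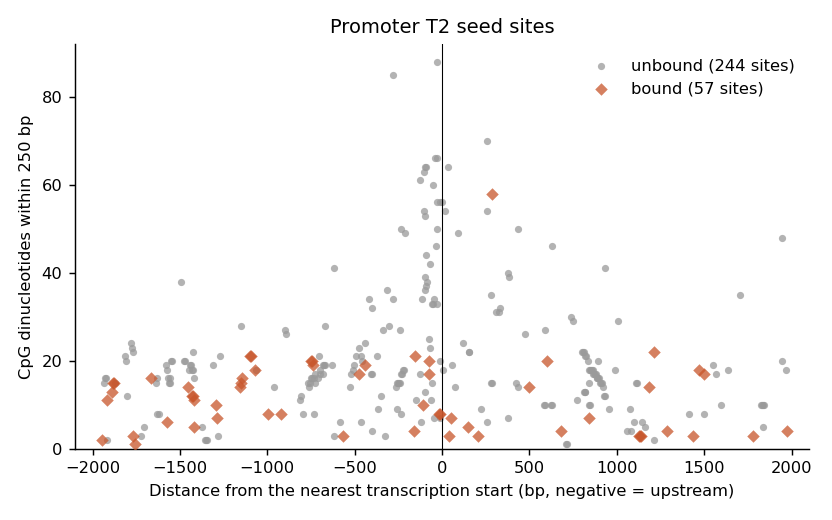
CpG dinucleotides within 250 bp of the site against the signed distance from the nearest transcription start in bp (negative values are upstream), 1 point per promoter T2 seed site, with 57 bound sites as diamonds and 244 unbound sites as circles. Nearly all sites with 30 or more CpG are unbound circles near the start, and FGF3 (58 CpG) is the only bound site among them.

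By annotation, 28 bound sites lay outside transcripts, 25 in introns, 3 in untranslated exons and 1 in a coding exon. The untranslated ones were at LIMA1, FGF3 and PDE10A, and the coding one was at VPREB1, which encodes part of the pre-B-cell receptor. Unbound sites showed 101, 123, 19 and 1 in the same order. Upstream of the start 37 of 184 sites were bound (20.1%) and downstream 20 of 117 (17.1%). Sites on the strand of the gene were bound in 31 of 140 cases (22.1%) and those on the opposite strand in 26 of 161 (16.1%). The intervals overlapped in each of these comparisons. At 3 of the 42 peaks another protein-coding gene also had a start within 2 kb, namely PLA2G2C beside UBXN10, CCNK beside SETD3 and C5orf52 beside SOX30.

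No difference in matching beyond the seed was resolved between bound and unbound promoter sites. Of bases 1 to 9 of T2, counted from its 5′ end, bound sites matched a mean of 2.70 and unbound sites 2.91, a difference of -0.21 bases with an interval from -0.55 to 0.13. Each of the 9 bases was matched at shares whose difference had an interval that included 0. Base 9, next to the seed, was matched in 5.26% of bound and 4.92% of unbound sites. Base 6 was matched most often, in 64.9% and 66.8%. Only with peaks at P at or below 1e-05 or with the starts of all protein-coding transcripts did the interval of the mean difference leave 0, at -0.47 and -0.32 bases, in the direction of fewer matches at bound sites. Away from promoters, with many more sites, the means were 2.66 at 1189 bound and 2.99 at 5329 unbound sites. No interval was computed for that difference. There, base 8 was matched less often at bound sites (-10.4 points, interval -13.4 to -7.37). Base 4 was matched more often (3.19 points, interval 1.71 to 4.90).

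None of the 5 promoter sites with 6 or more of these bases matched was bound within 70 bp, but so few sites leave a Wilson limit of 43.4%. These 5 include the on-target PLAU site, which lay inside a peak but 137.5 bp from its summit. Of 30 sites with 5 matched bases 4 were bound (13.3%), at UBXN10, RGR, NPR1 and THOC2. At the other end, the TIMP1 site shown above matched none of the 9 bases and had a peak of 6.01-fold with the summit 10.5 bp away. TIMP1 encodes an inhibitor of matrix metalloproteinases, and its site was named after its values were seen. Across the 42 peaks fold enrichment was lower where more of these bases matched (Spearman's rho -0.45, Pearson's r -0.40, n = 42 peaks of 1 library). By the first PAM base, the shares bound were 19.3% for A (40 of 207), 17.4% for G (12 of 69), 8.33% for C (1 of 12) and 30.8% for T (4 of 13). The difference of G from the other 3 bases was -2.01 points (interval -11.1 to 9.53).

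PLAU, the on-target gene, was itself among the unbound sites by the 70 bp rule. Its T2 site lay inside a peak (chr10:75669472-75671059, 4.21-fold, 62 tags, FDR 21%), but 137.5 bp from the summit. The full-length target of T1 was nearest to that summit, with its 20 bases centred 73.5 bp away. Measured the same way, the T2 target was 131.5 bp away. The targets of T5, T4 and T3 were 232.5, 299.5 and 405.5 bp away. The T3 target was outside the peak. The PLAU site had 50 CpG within 250 bp and ranked 20 among the 301 promoter sites by this count. SH2D3C, FAM221A, GAPDH and TGFBR3, other genes that the study examined, had no T2 seed site within 2 kb of a start.

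In all, 9 unbound promoter sites lay inside a peak. The last sites inside the limit were at TAF7L (68.5 bp from the summit), MS4A12 (66.5, 60.5 and 54.5 bp) and TFPI (51.5 bp), and the first outside it were at MS4A12 (72.5 bp), TAF7L (74.5 bp) and DGKQ (86.5, 92.5 and 98.5 bp). MS4A12 and TAF7L had 4 other sites that were bound at the same summit. The DGKQ, PLAU, SH3PXD2A, TMEM86A and CX3CL1 sites were in peaks with no bound promoter site. CX3CL1, a chemokine gene, had a 6.31-fold peak whose summit was 401.5 bp from the T2 site.

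The T2 seed consists of A and G only, and 149 of the 301 promoter sites had another T2 seed site within 140 bp. The 20 bases found most often before the PAM, shown here because they recurred at 65 sites and 25 loci, often overlap copies of themselves in tandem.
most frequent site: agaggGaGaGGGAGAGGGAG

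Of these 65 sites 9 were bound, at 5 loci. A site with no other T2 seed site within 140 bp was bound in 35 of 152 cases (23%), and a site with 1 to 4 neighbours in 22 of 96 (22.9%) at 7 of 34 loci. None of the 53 sites with 5 or more neighbours was bound, which allows a share of up to 5.66% by the rule of 3 counts and up to 6.76% by the Wilson interval, but these sites came from only 5 loci. Single and clustered sites differed by 8.26 points (interval -0.628 to 17.0). The bound loci with the most sites were MS4A12 and TAF7L, with 5 each, and TFPI, with 4. TFPI encodes an inhibitor of blood coagulation, and all its 4 sites were bound under an 8.11-fold peak.

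The largest unbound loci were at HGSNAT (23 sites), RNASE10 (9 sites) and NR2F1 (8 sites). Of the 49-base words within 100 bp of the sites, at most 55.6% at HGSNAT, 39.2% at RNASE10 and 91.5% at NR2F1 occur once in the genome. The authors used uniquely mapped reads. Over all promoter sites, 0 of 58 with under 50% unique words were bound, and these came from only 11 loci. With 50% to under 100% it was 18 of 75 (24%), at 6 of 34 loci, and with all words unique 39 of 168 (23.2%), at 36 of 151 loci. The lower quartile of unique words was 95.4% at bound and 54.9% at unbound sites, and its part in the unbound calls was not tested. Among the sites with all words unique, the CpG medians of bound and unbound sites were 7 and 22, a wider gap than over all sites.

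At the level of genes, 42 of the 189 nearest genes had a bound site (22.2%). Genes were also counted by 8 lists of symbol prefixes, which take in only part of each kind of gene (GLI3, PROX1, LCK and RFWD3 are in none of them). The lists held 24 of the 189 genes, and 3 had a bound site (12.5%). Of 9 genes with prefixes of homeobox, SOX, PAX, TBX and similar developmental factors, MEIS1 and SOX30 were bound, and the unbound ones were DLX1, EMX2, HOXB8, HOXC13, PAX8, SIX3 and TBX15. Among 5 genes with semaphorin, plexin, neurexin and similar prefixes, SEMA6A was bound. In the other lists no gene was bound. These genes included SLC16A8, SLC35G3 and SLC44A1 (solute carriers), RAB11A, RABL6 and RAPGEF4 (small GTPases and their regulators), ZNF28 (zinc finger), PTPN5 (phosphatase) and TRIM50 (ubiquitin pathway). With so few genes a list, these counts could not be set apart from the 22.2%.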

How the data were processed

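ChIP-seq of HEK293T cells was represented by 1 list of peaks, in which the input sample served as the control of the call. For this list the authors aligned reads to hg19 using SOAP2, drew equal numbers of unique reads for ChIP and input, and ran MACS 1.4.2 at P 0.001. The deposited tag counts are raw ChIP tags per peak. The deposited fold enrichment is a ratio to the local background, the deposited FDR is a percent, and the deposited score is the log10 of P multiplied by -10. The deposited positions count from 1, and a summit is the start plus the offset minus 1. The methods describe triplicates, of which only shared peaks were kept, and a filter against repeats and rDNA. Which replicate this list stems from is not given in the sources used here, and its header shows no such selection, so bound calls rest on the list as deposited. The paper reports far fewer peaks after its selection than this list holds. Bound calls here are therefore looser than those selected peaks. A supplementary figure legend of the paper, however, also uses a set of binding sites whose number is close to that of this list. Of 7757 peaks, 7748 were used, leaving out 9 on chromosome Y or other contigs.

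T2 sites were searched on both strands of GRCh37 with Python 3.11.15, numpy 2.4.6, pandas 2.3.3 and scipy 1.17.1. Interval, word and island code was tested on simulated data. CpG was counted 250 bp to each side of the site. Named genes were those of the 10 bound peaks with the highest fold enrichment, the 8 sites with most bases matched (AL109927.1 and EIF4G3, both unbound with 16 bases, complete them), the 5 sites just inside and just outside 70 bp, 5 genes of the study and the loci with most sites. The members, lists, families and rules were chosen with earlier results of these data known. Alternatives were 35 and 150 bp, the whole peak, P at or below 1e-05, 1 kb promoters, all transcripts, 1 site per locus, unique words only, other CpG windows and another island definition.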

Additional observations from a re-analysis of the deposited data

How the results depend on the processing

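Of 69 alternative values, 46 were counted as unchanged. For differences this meant the same direction and the same side of the limit. For the share bound and the median fold enrichment it meant a value inside the main interval. The differences below are bound minus unbound for medians and means, promoter minus other sites, G minus other PAM bases, and single minus clustered sites, in percentage points for shares. Within 35 bp of the summit the PAM difference turned to 1.01 and the clustering difference (10.3) excluded 0. Within 150 bp the CpG difference (-3) no longer had separate intervals, the difference in matched bases turned to 0.00828, and that in distance to the start (418.5 bp) had separate intervals. Anywhere inside the peak the CpG difference was -3.5, with touching intervals. With P at or below 1e-05 the share bound was 11.6%, the difference in matched bases was -0.468, the PAM difference turned to 1.84, the distance difference was 424.5 bp and the median fold enrichment was 7.80. Within 1 kb of a start the share was 12.1%, the promoter difference turned to -6.40, the CpG difference (-9) and the island difference (-5.79) no longer excluded 0, the clustering difference was 11.9 and the distance difference turned to -61.5 bp. With all transcripts the differences in matched bases (-0.320) and clustering (10.5) excluded 0. With 1 site per locus the promoter difference turned to -2.26, and with unique words only to -9.29, with a distance difference of 659 bp. The CpG difference within 70 bp (-2) had touching intervals. The cause of these shifts was not tested. No paired analysis was possible because there was 1 ChIP sample. The list holds only peaks past P 0.001, so binding below that threshold at this depth was not seen.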
